A study of Mus musculus with 10 samples.

Results

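The Dlx and Msx homeobox genes comprised 8 genes in this series, Dlx1, Dlx2, Dlx3, Dlx4, Dlx5, Dlx6, Msx1 and Msx2, out of 35542 genes in the count table. They were taken by gene name, and the rule for taking them used no measured value. RNA was sequenced from the frontonasal prominence (FNP), the embryonic outgrowth that forms the forehead and nose, at E10.5. There were 4 libraries from Smchd1 MommeD1/MommeD1 embryos (MD1) and 6 from Smchd1 WT/WT embryos (WT), all on the FVB/NJ background. MommeD1 is a loss-of-function allele of Smchd1, a chromatin protein that maintains gene silencing, and every cell of a homozygous embryo carries it. By their labels the MD1 libraries were 2 males (replicates 2 and 3) and 2 females (replicates 1 and 4), and the WT libraries 3 males and 3 females. According to the study's methods the FNP was cut by hand along its border with the maxillary prominence.

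Dlx and Msx proteins are homeodomain transcription factors that bind similar short AT-rich sites. Msx proteins act largely as repressors downstream of BMP signalling in facial mesenchyme and ectoderm, and Dlx proteins act largely as activators in neural crest mesenchyme of the first pharyngeal arch, in surface ectoderm and placodes, and in ventral forebrain. Dlx genes lie in linked, convergently transcribed pairs (Dlx1 with Dlx2, Dlx3 with Dlx4, Dlx5 with Dlx6) whose partners share enhancers. Msx1 and Msx2 lie on different chromosomes. In the files' coordinates (GRCm38) Dlx1 occupies 71528113 to 71533981 and Dlx2 71543408 to 71546754 of chromosome 2. Dlx3 (95120119 to 95125296) and Dlx4 (95140447 to 95146263) lie on chromosome 11, and Dlx6 (6863334 to 6868568) and Dlx5 (6877805 to 6882085) on chromosome 6. Msx1 spans 37820485 to 37824583 of chromosome 5 and Msx2 53466884 to 53473074 of chromosome 13. All 8 are protein-coding genes with 2 to 4 exon blocks.

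The libraries held between 4195119 counts (MD1 male replicate 3) and 24125084 counts (WT male replicate 3). Smchd1 checked the genotype labels: it had 55.3 to 99.9 CPM (counts per 1000000 of the scaled library size) in the MD1 libraries and 229 to 265 CPM in the WT libraries, with no overlap. The library labelled MD1 female replicate 1 carried Ddx3y, a Y-linked gene, at 88.2 CPM, whereas MD1 female replicate 4 and the WT females had 0. Its Xist level was 204 CPM, against 0.596 to 2.08 CPM in the libraries labelled male, 2594 to 2695 CPM in the WT females and 6724 CPM in MD1 female replicate 4. It thus had Ddx3y at the level of the males and Xist between the levels of the males and the females, and values split by label sex carry that limit. MD1 female replicate 4 stood apart from the rest: it was the lowest of the 10 libraries for 30.1% of the tested genes and the highest for 31.5%. Its mean score for a list of hypoxia response genes was 3.60 above the WT mean on the log2 scale, its score for erythroid markers 2.22 above, and its score for facial mesenchyme markers 0.62 below (-0.62).

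None of the 7 genes that could be tested passed the test for a difference between MD1 and WT. The genes were Dlx1, Dlx2, Dlx3, Dlx5, Dlx6, Msx1 and Msx2, and Dlx4 had too few reads to pass the filter. With edgeR's quasi-likelihood test and Benjamini-Hochberg adjustment over 15452 autosomal genes, 0 of the 7 passed an adjusted p of 0.05, against 0.0777% of all tested genes (12 genes). At an unadjusted p under 0.05 there were again 0 of 7, against 9.79% of all genes, and DESeq2, limma-voom and limma on log2 RPKM each gave 0 at either threshold. In none of the 7 did the MD1 values lie all above or all below every WT value, which held for 2.05% of all genes. The estimates were below 0 for 4 genes (Dlx1, Dlx2, Msx1, Msx2) and above 0 for 3 (Dlx3, Dlx5, Dlx6), with a median log2 fold change of -0.16 beside 0.0029 over all tested genes, of which 49.5% were below 0. Of the 28 MD1 values of these genes, 15 lay within the WT range, 8 below it and 5 above it. The matching shares over all tested genes were not computed, so these counts only describe the 7 genes.

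**Figure D1:**
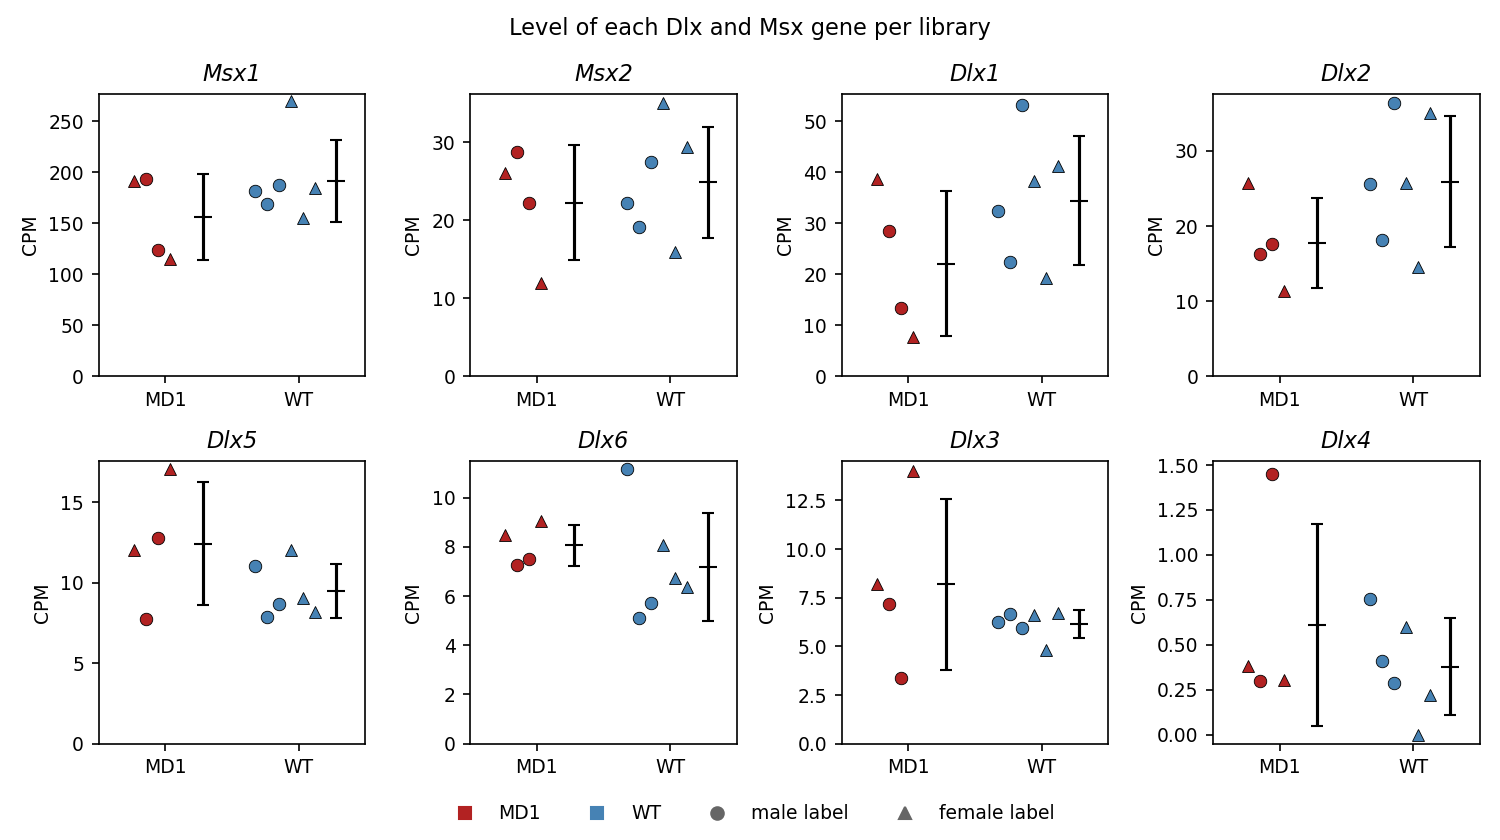
Level of each Dlx and Msx gene in CPM (y axis, linear) in the 4 MD1 and 6 WT libraries (x axis). Each symbol is a library, circles carry a male label and triangles a female label, and the bar is the group mean ± SD. For no gene do the MD1 libraries lie all above or all below every WT library. MD1 female replicate 4 is the lowest point for Msx1, Msx2, Dlx1 and Dlx2 and the highest for Dlx3 and Dlx5.

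Msx1, a BMP-responsive repressor needed for palate and tooth development, was the most abundant of the 8. It had 191, 193, 124 and 115 CPM in MD1 replicates 1 to 4, against 155 (lowest), 183 (median) and 269 CPM (highest) in the WT libraries. MD1 male replicate 3 and MD1 female replicate 4 lay below every WT library, and the other two MD1 libraries lay within the WT range. Msx1 averaged 156 ± 42.1 CPM in MD1 and 191 ± 40.1 CPM in WT (SD, n = 4 and 6). The log2 fold change was -0.29 (SE 0.18, 95% interval -0.69 to 0.10), with an edgeR adjusted p of 0.567. With each library left out in turn it ran from -0.41 to -0.16, the value without MD1 female replicate 4 being -0.16, and it was -0.17 without WT female replicate 4. Msx1 took 61.3% to 66.8% of all reads of the 8 genes in the MD1 libraries and 57.7% to 68.8% in the WT libraries.

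Msx2, the paralogue that acts in calvarial bone and overlaps with Msx1 in facial mesenchyme, had 26.0, 28.8, 22.2 and 12.0 CPM in MD1 replicates 1 to 4. In WT it had 15.9 (lowest), 24.9 (median) and 35.1 CPM (highest). Only MD1 female replicate 4 lay outside the WT range, below it. Msx2 averaged 22.3 ± 7.35 CPM in MD1 and 24.9 ± 7.11 CPM in WT. Its log2 fold change was -0.16 (SE 0.26, 95% interval -0.72 to 0.40, edgeR adjusted p = 0.817), and without MD1 female replicate 4 it was 0.057. Leaving out WT replicate 4 gave -0.04 and leaving out WT replicate 5 gave -0.26. Among the MD1 libraries, omitting replicate 1 gave -0.26 and omitting replicate 2 gave -0.32.

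The upstream bases of Dlx2 and Msx1 are shown because each is the most abundant of its family per length of transcript in WT. Of the 8 genes, 4 matched the RefSeq promoter table (GRCm38.p6). Both windows lie on the minus strand and hold the 250 bases before the annotated start, chr2:71546755-71547004 for Dlx2 and chr5:37824586-37824835 for Msx1, written in the direction of transcription. Capitals mark the letters CCAAT or their reverse complement ATTGG, searched on both strands.
Dlx2: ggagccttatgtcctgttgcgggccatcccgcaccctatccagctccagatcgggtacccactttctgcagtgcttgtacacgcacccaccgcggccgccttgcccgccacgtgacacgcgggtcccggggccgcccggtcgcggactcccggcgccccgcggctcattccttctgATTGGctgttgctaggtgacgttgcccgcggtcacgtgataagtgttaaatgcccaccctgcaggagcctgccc
Msx1: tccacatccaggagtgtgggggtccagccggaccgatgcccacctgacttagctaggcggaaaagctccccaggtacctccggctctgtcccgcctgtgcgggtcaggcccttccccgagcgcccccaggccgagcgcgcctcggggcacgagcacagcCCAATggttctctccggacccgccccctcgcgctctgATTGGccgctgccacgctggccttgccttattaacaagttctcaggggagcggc
The Dlx2 window holds 1 such match, which begins 74 bases before the start, and the Msx1 window holds 2, which begin 91 and 54 bases before it. Of 32851 promoter windows of this length, 33.8% hold at least 1. The core homeodomain letters TAATTA (in 4.8% of windows) and TAATTG (in 7.2%, both strands) are in neither window. The windows are 66.4% (Dlx2) and 68.0% (Msx1) G or C, with 24 and 20 CG dinucleotides, beside a median of 6 over all windows. These are descriptions of letters and not of binding.

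Dlx1 varied more among libraries than any other of the 7 tested genes. Dlx1 acts with Dlx2 in the maxillary part of the first arch and in forebrain interneurons. It had 38.8, 28.5, 13.3 and 7.60 CPM in MD1 replicates 1 to 4, against 19.3 (lowest), 35.4 (median) and 53.2 CPM (highest) in WT. MD1 male replicate 3 and MD1 female replicate 4 lay below every WT library. Dlx1 averaged 22.0 ± 14.2 CPM in MD1 and 34.5 ± 12.6 CPM in WT. The log2 fold change was -0.62 (SE 0.40, 95% interval -1.49 to 0.26, edgeR adjusted p = 0.580), the furthest from 0 of the 7, and it ranged from -1.06 to -0.28 when each library in turn was left out, with the lower end set by the library labelled MD1 female replicate 1 and the upper end by MD1 female replicate 4. Among the WT libraries alone the highest value was 2.76 times the lowest, and the WT spread of Dlx1 on the log2 scale exceeded that of 93.7% of tested genes.

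Dlx2 had 25.8, 16.3, 17.6 and 11.3 CPM in MD1 replicates 1 to 4, against 14.6 (lowest), 25.6 (median) and 36.4 CPM (highest) in WT. Of the 4 MD1 libraries 3 lay within the WT range and only MD1 female replicate 4 lay below it. Dlx2 averaged 17.7 ± 6.00 CPM in MD1 and 25.9 ± 8.74 CPM in WT. Its log2 fold change was -0.54 (SE 0.28, 95% interval -1.15 to 0.07), with an edgeR adjusted p of 0.518 and an unadjusted p of 0.077, the lowest of the 7. Without MD1 female replicate 4 the log2 fold change was -0.35, and with each library left out in turn it ran from -0.80 to -0.35. The WT spread of Dlx2 exceeded that of 92.3% of tested genes.

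Dlx5, which with Dlx6 gives the lower jaw its identity and acts in the olfactory placode, had 12.0, 7.78, 12.8 and 17.1 CPM in MD1 replicates 1 to 4. In WT it had 7.89 (lowest), 8.90 (median) and 12.1 CPM (highest). MD1 male replicate 3 and MD1 female replicate 4 lay above every WT library and MD1 male replicate 2 lay just below them. Dlx5 averaged 12.4 ± 3.82 CPM in MD1 and 9.50 ± 1.68 CPM in WT, a log2 fold change of 0.39 (SE 0.21, 95% interval -0.06 to 0.84, edgeR adjusted p = 0.525). The log2 fold change was 0.19 without MD1 female replicate 4 and 0.068 without both libraries labelled MD1 female.

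Dlx6 had the narrowest MD1 range of the 7 tested genes: 8.46, 7.28, 7.49 and 9.05 CPM in MD1 replicates 1 to 4. In WT it had 5.09 (lowest), 6.54 (median) and 11.2 CPM (highest), so that all 4 MD1 values lay inside the WT range. Dlx6 averaged 8.07 ± 0.831 CPM in MD1 and 7.19 ± 2.20 CPM in WT. The log2 fold change was 0.19 (SE 0.21, 95% interval -0.28 to 0.65, edgeR adjusted p = 0.742). Leaving out WT replicate 1 gave 0.35, leaving out WT replicate 2 gave 0.10, and it was 0.060 without both libraries labelled MD1 female.

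Dlx3, an ectodermal regulator of epidermis, hair and tooth, had the smallest WT spread of the 7, above that of 57.2% of tested genes. It had 8.23, 7.18, 3.38 and 14.0 CPM in MD1 replicates 1 to 4, against 4.82 (lowest), 6.42 (median) and 6.73 CPM (highest) in WT. No MD1 library lay within the WT range: replicates 1, 2 and 4 lay above it and replicate 3, the shallowest library with 14 Dlx3 reads, lay below it. Dlx3 averaged 8.20 ± 4.39 CPM in MD1 and 6.16 ± 0.720 CPM in WT. The log2 fold change was 0.45 (SE 0.28, 95% interval -0.15 to 1.05, edgeR adjusted p = 0.560), and it was 0.11 without MD1 female replicate 4 and -0.13 when both libraries labelled MD1 female were left out. The summed level of 10 surface ectoderm markers was 298, 255, 318 and 392 CPM in MD1 replicates 1 to 4. It ran from 228 to 295 CPM in WT. Of these markers 9 were above 0 and 1 below 0 in log2 fold change, none passed the threshold, and their part in the Dlx3 values was not tested.

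Dlx4, the partner of Dlx3, was near the limit of detection. It had 8, 3, 6 and 4 reads in MD1 replicates 1 to 4 (21 in all) and 0 (lowest) to 11 reads (highest) in the WT libraries (37 in all). The value of 0 was in WT female replicate 5, where it allows up to 3 counts or 0.284 CPM. Without the count filter the edgeR log2 fold change of Dlx4 was 0.44 (adjusted p = 0.824), and DESeq2 gave 0.50 (adjusted p = 0.854). Neither estimate passed the threshold, and the power to find a difference at this depth was not measured.

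**Figure D2:**
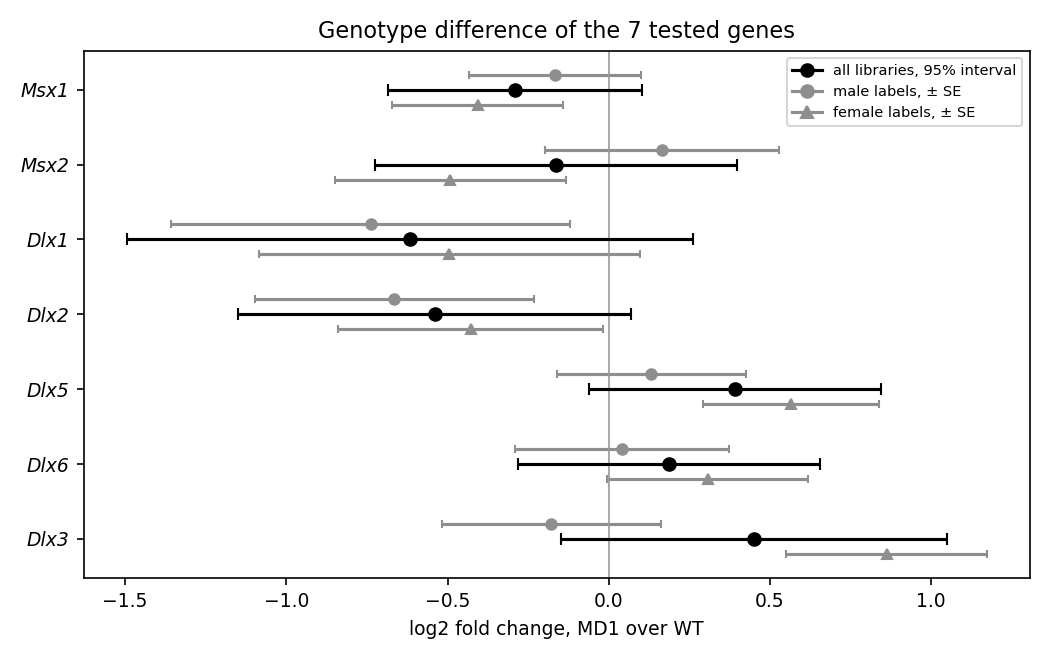
Log2 fold change of MD1 over WT (x axis) for the 7 tested genes (y axis). Black points are the fit over all 10 libraries with 95% intervals, and grey circles and triangles are the effects among libraries with male and female labels with their SE. All 7 black intervals include 0.

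**Figure D3:**
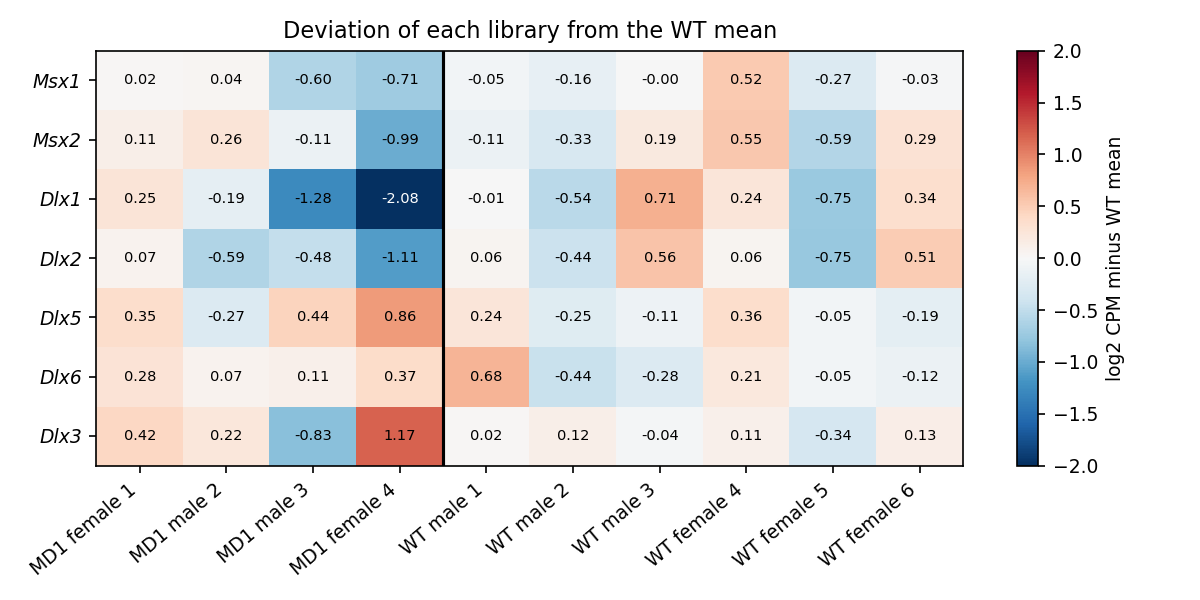
Log2 CPM of each library minus the WT mean (colour and printed value) for the 7 tested genes (y axis) in the 4 MD1 libraries, left of the line, and the 6 WT libraries (x axis). MD1 female replicate 4 departs furthest, at -2.08 for Dlx1 and 1.17 for Dlx3.

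The departures were uneven among MD1 libraries. In MD1 female replicate 4 the log2 CPM minus the WT mean was -0.71 for Msx1, -0.99 for Msx2, -2.08 for Dlx1 and -1.11 for Dlx2, and it was 1.17 for Dlx3, 0.86 for Dlx5 and 0.37 for Dlx6. This library was thus the lowest of all 10 for 4 of the 7 genes and the highest for 2, beside 30.1% and 31.5% over all genes. Its 8 facial mesenchyme markers summed to 797 CPM, against 1183 to 1628 CPM in WT, and the other MD1 libraries summed to between 1172 and 1377 CPM. Fewer cells of a type and less RNA per cell cannot be told apart in such bulk samples, and the part of either in these values was not tested. In MD1 male replicate 3 Dlx1 was at -1.28 and Dlx3 at -0.83, whereas the library labelled MD1 female replicate 1 stayed between 0.02 and 0.42 for all 7 genes.

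Per length of transcript the order of the WT levels was Msx1, Dlx2, Msx2, Dlx1, Dlx5, Dlx6, Dlx3 and Dlx4. On the deposited scale converted to RPKM (reads per 1000 bases of transcript and library size), Msx1 averaged 55.7 ± 11.7, Dlx2 8.20 ± 2.82, Msx2 6.85 ± 1.97 and Dlx1 5.77 ± 2.15 (SD, n = 6). Dlx5 averaged 3.79 ± 0.646 RPKM, Dlx6 2.73 ± 0.807, Dlx3 2.13 ± 0.259 and Dlx4 0.108 ± 0.0677. Msx1 over Dlx2, Dlx5 over Dlx6 and Dlx3 over Dlx4 held in 6 of 6 WT libraries, each with an exact sign-flip p of 0.03125, the smallest that 6 libraries allow, and an adjusted p of 0.0729 over the 7 neighbouring pairs. The other 4 neighbouring pairs held their order in 5 of 6 WT libraries (exact p from 0.0625 to 0.156). No neighbouring pair passed after adjustment, which with 6 libraries would have needed more pairs at the smallest p. The order was taken from these same values, so the direction of each pair was set beforehand. Msx1 exceeded Dlx2 by 2.82 and Dlx3 exceeded Dlx4 by 4.60 on the log2 RPKM scale.

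**Figure D4:**
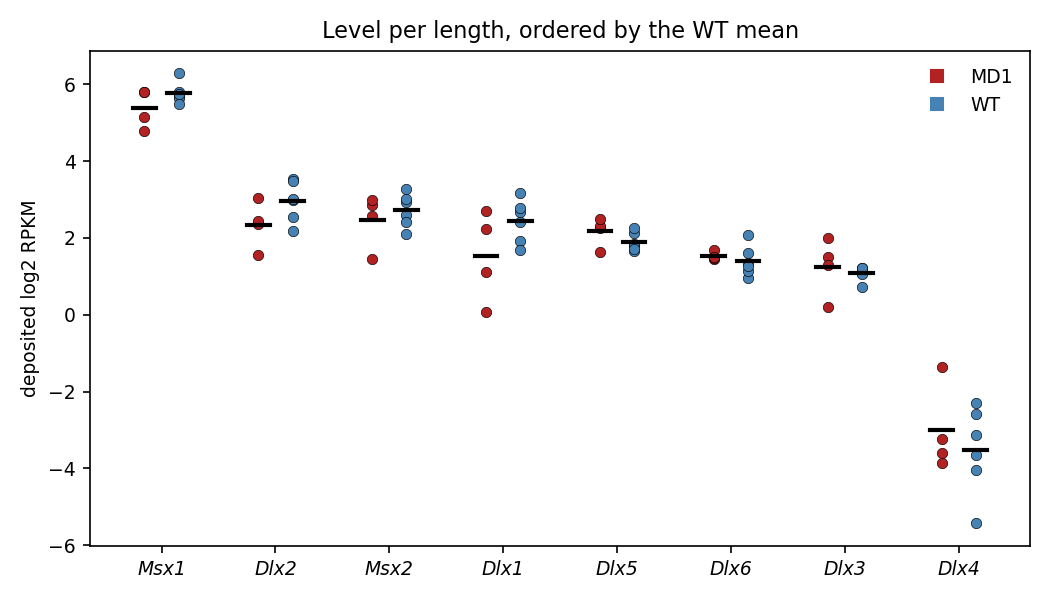
Deposited log2 RPKM (y axis) of the 8 genes, in the order of their WT means (x axis), with MD1 libraries left and WT libraries right of each position. Points are libraries and bars are group means. Msx1 stands above and Dlx4 below the other 6 genes in all 10 libraries.

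Partners of a pair varied together across the 10 libraries for 3 of the 4 pairs. Dlx1 and Dlx2 had a Pearson r of 0.89 and a Spearman rho of 0.94 in log2 CPM (permutation p = 0.00040 and 0.00024, adjusted over 4 pairs to 0.0016 and 0.00096). Within the 6 WT libraries r was 0.97 (exact permutation p = 0.00139), and without the 2 libraries farthest from the median of Dlx1, which were MD1 female replicate 4 and MD1 male replicate 3, it was 0.92. Msx1 and Msx2, which are not linked, had an r of 0.82 and a rho of 0.88 (permutation p = 0.0037 and 0.0015, adjusted 0.0075 and 0.0030), 0.86 within WT (exact p = 0.00833) and 0.84 without the 2 farthest libraries. Dlx5 and Dlx6 had an r of 0.68 and a rho of 0.70 (permutation p = 0.031 for each, adjusted 0.041), 0.83 within WT (exact p = 0.0375) and 0.75 without the 2 farthest. On the deposited log2 RPKM scale that r was 0.58, with an adjusted p of 0.104. Dlx3 and Dlx4 showed no such relation over the few reads of Dlx4. Their r was -0.23 and their rho -0.16 (permutation p = 0.51 and 0.66, the same after adjustment). Within WT r was 0.79 (exact permutation p = 0.0903) but rho was 0.20 (exact permutation p = 0.714). WT female replicate 5, with 0 reads of Dlx4, also had the lowest WT value of Dlx3. Without the 2 farthest libraries r was 0.60.

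Partners were not the closest genes to each other. Among 15451 other genes Dlx2 ranked 139th in likeness to Dlx1, and Dlx1 ranked 23rd among genes like Dlx2. Dlx6 ranked 1307th for Dlx5 and Dlx5 264th for Dlx6, while Msx2 ranked 331st for Msx1 and Msx1 319th for Msx2. Across pairs, over all 10 libraries, Dlx1 had an r of 0.84 with Msx1, 0.83 with Msx2 and -0.58 with Dlx5. The r of these cross pairs within WT was not computed. In MD1 female replicate 4 Dlx1 was at -2.08, Msx1 at -0.71 and Dlx5 at 0.86 (log2 CPM minus the WT mean). In MD1 male replicate 3 they were at -1.28, -0.60 and 0.44. These correlations are descriptions over 10 libraries, in which both genes of a pair share the depth and scaling of each library.

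**Figure D5:**
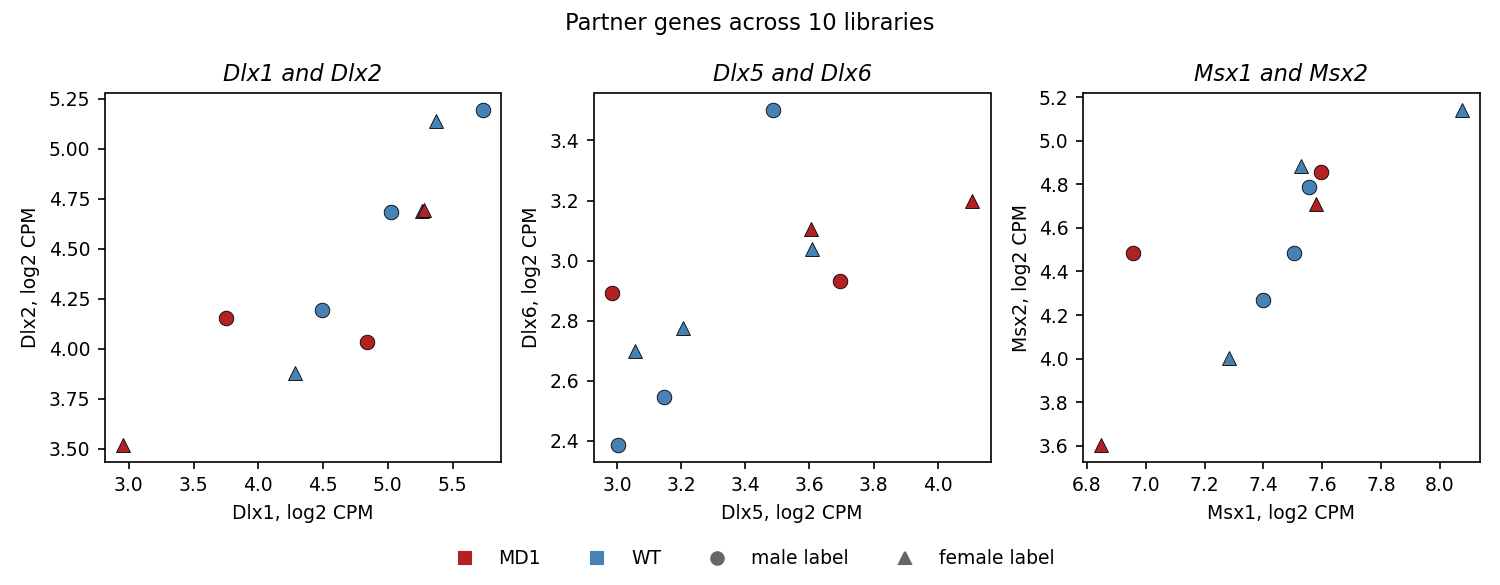
Log2 CPM of the second gene (y axis) against the first gene (x axis) for Dlx1 and Dlx2, Dlx5 and Dlx6, and Msx1 and Msx2. Each symbol is a library, red for MD1 and blue for WT, circles with a male label and triangles with a female label. Across 10 libraries r is 0.89, 0.68 and 0.82 from left to right.

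The ratio of partners within a library needs no scaling between libraries, and in none of the 4 pairs did its difference between genotypes pass the test. The log2 ratio of Dlx1 over Dlx2 was 0.59, 0.81, -0.40 and -0.57 in MD1 replicates 1 to 4 and ran from 0.23 to 0.58 in WT. Dlx1 thus exceeded Dlx2 in CPM in 6 of 6 WT libraries and in 2 of 4 MD1 libraries. The mean ratio was 0.11 ± 0.69 in MD1 and 0.40 ± 0.14 in WT, a difference of -0.29 (exact permutation p = 0.343, 2-sided, 0.635 adjusted over 4 pairs). The differences were 0.14 for Dlx5 over Dlx6 (exact p = 0.476), -0.27 for Dlx3 over Dlx4 (exact p = 0.776) and -0.13 for Msx1 over Msx2 (exact p = 0.471). The smallest p that 4 libraries against 6 allow was 0.0048.

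Sex is the second condition in the labels. Within libraries labelled male, 0 of 7 genes passed (0.0194% of all genes did), with 0 of 7 also at an unadjusted p under 0.05 (3.8% of all genes), and the effects ran from -0.74 for Dlx1 (SE 0.62) to 0.17 for Msx2 (SE 0.36). Within libraries labelled female 0 of 7 passed (0.0129% of all genes did), and 1 had an unadjusted p under 0.05, beside 19.1% of all genes. That gene was Dlx3, at a log2 fold change of 0.86 (SE 0.31, edgeR adjusted p = 0.202). The female effect exceeded the male effect for Dlx3 by 1.04 (SE 0.46, edgeR adjusted p = 0.479), and 0 of 7 genes passed for this difference (0% of all genes did), with Dlx3 alone at an unadjusted p under 0.05 (10.4% of all genes). WT females against WT males differed by -0.12 to 0.23 on the log2 scale, with 0 of 7 genes passed (0% of all genes did) and 0 at an unadjusted p under 0.05 (1.27% of all genes). The calls among females turned on 1 library. Without the library labelled MD1 female replicate 1, which carries Y-linked reads, MD1 female replicate 4 is the only MD1 female and its spread is assumed to be that of the other groups. In that fit 4 of 7 genes passed, beside 33.7% of all genes (5261 genes): Dlx1 at -2.13 (edgeR adjusted p = 0.0157), Msx2 at -1.17 (adjusted p = 0.0317), Msx1 at -0.82 (adjusted p = 0.0390) and Dlx3 at 1.19 (adjusted p = 0.0119). Dlx3 also passed for the difference between sexes there (1.35, adjusted p = 0.0422, beside 22.5% of all genes). Without MD1 female replicate 4, none of the 7 passed among females, and Dlx1 was at 0.23, Dlx2 at 0.032, Msx1 at -0.089 and Msx2 at -0.055.

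Genes around the BMP signal, the main inducer of Msx genes and a regulator of Dlx genes, gave no calls. Of 21 listed ligands, receptors, mediators and antagonists 12 had estimates above 0 and 9 below, with 0 passed and a median of 0.05. The ligand Bmp2 (log2 fold change 0.97, edgeR adjusted p = 0.506) and the antagonist Grem1 (0.36, adjusted p = 0.502) had the lowest p, and the receptor Bmpr1a (0.08) and the mediator Smad5 (-0.11) the highest levels. Bmp2 had 2.38, 1.50, 2.17 and 10.1 CPM in MD1 replicates 1 to 4, against 1.83 to 2.47 CPM in WT. Its MD1 mean thus rested on MD1 female replicate 4.

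Of the genes that work with Dlx genes under endothelin in the pharyngeal arches, 9 of 12 were tested, of which 2 had estimates above 0 and 7 below, with 0 passed and a median of -0.25. Barx1, a homeobox gene of the maxillary and mandibular mesenchyme, had 3.61, 1.50, 1.45 and 3.12 CPM in MD1 replicates 1 to 4. In WT it had 1.88 CPM in its lowest library and 25.6 CPM in its highest, WT male replicate 3. Its log2 fold change was -1.96 (SE 0.76, edgeR adjusted p = 0.496). Lhx6, a LIM homeobox gene of the same mesenchyme and of forebrain interneurons, had 8.51, 4.99, 3.62 and 2.74 CPM in MD1 replicates 1 to 4 and 4.07 to 30.6 CPM in WT (log2 fold change -1.37, SE 0.57, adjusted p = 0.498). Edn1, which encodes the endothelin ligand and was chosen after its values were seen, ran the other way, at a log2 fold change of 1.43 (SE 0.61, edgeR adjusted p = 0.502). It had 1.28, 0.499, 2.66 and 9.73 CPM in MD1 replicates 1 to 4, against 0.765 to 1.68 CPM in WT, with its highest value in MD1 female replicate 4. The WT spread of Barx1 exceeded that of 99.9% of tested genes and that of Lhx6 99.4%. WT male replicate 3 and WT female replicate 6 had the highest values of Dlx1, Dlx2, Barx1, Lhx6 and Lhx8 among the WT libraries. The most abundant genes of the list, Pou3f3 (-0.10) and the endothelin receptor gene Ednra (-0.03), had estimates near 0.

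Among 9 tested genes of the ventral forebrain interneuron programme, in which Dlx1 and Dlx2 act, 3 had estimates above 0 and 6 below, with 0 passed and a median of -0.35. Nkx2-1, a factor of the ventral telencephalon, was at -0.35 (edgeR adjusted p = 0.531) and Sp8 at 0.26 (adjusted p = 0.570). None of the antisense transcripts of the Dlx clusters passed the test, with log2 fold changes of -0.43 for Dlx1as, 0.06 for Dlx6os1 and -0.15 for Dlx6os2. Per the labels the kit leaves strand unmarked, and 335 exon bases of Dlx1 (6.2%) overlap Dlx1as, 104 of Dlx6 (4.4%) overlap its antisense genes and 79 of Dlx4 (2.4%) overlap Dlx4os. Reads there cannot be told apart. Msx3, the third Msx gene, had at most 0.146 CPM in any library.

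The genes beside the 8 loci were tested as well. Within 200 kb of them lay 40 other genes, of which 19 were tested, 11 with estimates above 0 and 8 below, and 0 passed. Metap1d, a methionine aminopeptidase gene 2919 bases from Dlx1, was at 0.18 (edgeR adjusted p = 0.621).

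By pattern across the 10 libraries, among 11761 genes with a mean of at least 5 CPM, Dlx1 was most like AI606473 (r = 0.98), Frzb (0.98), which encodes a secreted Wnt antagonist, and Lhx8 (0.97). Dlx2 was most like Fdft1 (0.94), a sterol synthesis gene, Lhx6 (0.94) and Efs (0.92). Within the 6 WT libraries Dlx1 and Lhx8 had an r of 0.99 and Dlx2 and Lhx6 an r of 0.93. Msx1 was most like Aff3 (0.97), Kcna6 (0.96) and Mfap4 (0.96), and Msx2 most like Vcan (0.97), which encodes the matrix proteoglycan versican, Bcl11b (0.97) and Efr3b (0.96). Dlx5 was most like Golgb1 (0.97), 3110056K07Rik (0.95) and Efna5 (0.92), and Dlx6 most like Spata1 (0.94), Slc4a1ap (0.91) and Nktr (0.91). Dlx3 was most like Pcgf1 (0.98), Gm43951 (0.97) and Ino80dos (0.96). The likeness of Dlx3 to Gm43951 was 0.57 within the 6 WT libraries, whereas that of Msx2 to Efr3b was 0.99. These genes were picked for the highest r among 11761 over the 10 libraries, which include the 6 WT libraries. The WT values are thus no separate check, and high r values follow in part from the picking.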

How the data were processed

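Per the labels, all 10 libraries were made with the TruSeq RNA kit v2, which does not mark strand (the study's methods also name a stranded kit for RNA-seq in general). Per the study's methods and the submitters' notes, Trim Galore 0.4.4 removed adapters, HISAT2 2.0.5 mapped the reads to GRCm38.p6 and SeqMonk counted them per gene. The authors deposited raw counts per gene and log2 RPKM values, which they normalized for library size and transcript length. How counting treated strand was not given in the sources read. Averages per genotype were not used. Of 35591 rows, 27 symbols had been turned into dates and were restored, and 49 repeated rows were dropped. The 8 genes were matched to GENCODE release M21 by identifier, with equal coordinates.

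Counts were tested with edgeR 4.0.16 (R 4.3.3): filterByExpr (15982 genes), TMM, quasi-likelihood test, autosomes, Benjamini-Hochberg at 0.05. CPM use TMM-scaled library sizes, log2 CPM a prior count of 2. Effects by label sex came from 1 model with 4 group means. Exact permutation tests, permutation correlations (100000 resamples, scipy 1.17.1), DESeq2 1.42.0 and limma 3.58.1 were used as stated. The edgeR test of MD1 against WT was tried on simulated counts, with changes larger than the main estimates of the Dlx and Msx genes. Its power for changes of their size was not measured. The model by label sex and the correlation tests were not tried in this way.

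The genes and lists were chosen with earlier results of these data known. Named beside the 8 genes were, per list, the 2 genes of lowest p and the 2 of highest level, the 3 genes most like each tested gene, and nearest neighbours. Ddx3y, Edn1, Msx3 and Xist were named after their values were seen. Whether each library is 1 embryo is not in the labels, and p-values therefore cover only the scatter among these samples, which may be technical. No 2 of the 10 libraries agreed within sampling noise.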

Additional observations from a re-analysis of the deposited data

Results flagged for a closer look

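Of 24 sets of values checked for a sample far from the others, 2 stood out, and chance alone flags about 1 set in 20. Dlx4 in MD1 had 1.45 CPM in MD1 male replicate 3, the shallowest library, where the value stands for 6 reads, against 0.299 to 0.380 CPM in the other three MD1 libraries. Msx1 in WT had 269 CPM in WT female replicate 4, against 155 to 188 CPM in the other five WT libraries. The same library also had the highest sum of facial mesenchyme markers, 1628 CPM, and the highest Msx2 value, 35.1 CPM.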

How the results depend on the processing

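Over 20 alternatives of the fit of MD1 against WT (other scalings, tools and filters, label sex as a covariate, a replicate block, all chromosomes, and leaving out libraries), 0 of the Dlx and Msx genes passed the threshold in any. With 1 library left out, 0 to 2 of the 7 had an unadjusted p under 0.05. The share of all genes under 0.05 in those fits was not computed, and in the main fit it was 9.79%. The direction held in all 20 for Dlx1, Dlx2, Dlx5, Dlx6 and Msx1. Without both libraries labelled MD1 female Dlx3 was at -0.13 and Msx2 at 0.057. The count of all genes past the threshold was 12, and it was 53 with DESeq2, 4 with limma on log2 RPKM, 6 without both libraries labelled MD1 female and 4 to 13 with each library left out. Same-numbered libraries did not deviate together (correlations from -0.12 to 0.05). These correlations cannot decide whether the samples were collected in pairs. With the replicate block 0 genes and 0 Dlx or Msx genes passed, and Dlx2 had an unadjusted edgeR p of 0.041. The r of Dlx5 and Dlx6 was 0.58 on the log2 RPKM scale.

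Ranges with each library left out were as follows. The log2 fold change of Msx2 was -0.32 to 0.057, and the difference of the log2 ratio of Dlx3 over Dlx4 was -0.75 to 0.54. Among males Dlx3 was at -0.89 to 0.20, Dlx5 -0.23 to 0.49, Dlx6 -0.17 to 0.45, Msx1 -0.53 to 0.12 and Msx2 -0.047 to 0.33. Among females Dlx1 was at -2.13 to 0.23 and Dlx2 at -1.16 to 0.032. For the difference between sexes Dlx1 was at -1.42 to 0.94, Dlx2 -0.49 to 0.70, Dlx6 -0.15 to 0.48 and Msx1 -0.67 to 0.12. For WT females against WT males Dlx1 was at -0.38 to 0.28, Dlx2 -0.40 to 0.21, Dlx3 -0.12 to 0.088, Dlx5 -0.086 to 0.24, Dlx6 -0.23 to 0.39, Msx1 -0.076 to 0.34 and Msx2 -0.015 to 0.49. The cause of these shifts was not tested. Dlx4 is limited by depth: 58 reads over all 10 libraries.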
